A study of Mus musculus with 36 samples.

Results

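The change in RNA after 240 min of lipopolysaccharide (LPS) in wild-type mouse bone marrow-derived macrophages was measured in 6 libraries out of 36. The 3 WT libraries taken 240 min after LPS were set against the 3 WT libraries that received none (0 min), across every gene that reached a deposited log2 value of 3.32, which is 10 on the linear scale, in at least 3 of the 36 libraries. That was 11656 genes of 16416. LPS was given at 100 ng/ml. The macrophages were bone marrow cells kept on non-adherent plates for 7 days. Their RPMI medium held 10% FCS and 10% supernatant of L929 cells, a source of the growth factor M-CSF. WT cells carry the normal form of Tnip2, the gene for the Tpl2-binding protein ABIN-2. The other genotype carries its D310N form, and both genotypes were sampled at 0, 30, 60, 120, 240 and 360 min with 3 libraries in each of the 12 groups. The main comparison is between the means of the WT libraries at 240 and 0 min. SEs and p-values use a spread estimated within all 12 groups of the 36 libraries. WT libraries at 120 and 360 min and D310N libraries at 240 and 0 min are set beside the main comparison. No libraries of untreated cells at 240 min were used here, so LPS and the time that passed cannot be told apart. The labels do not say whether the 3 libraries of a group came from separate mice or cultures, so p-values measure the spread between libraries within groups, which may be technical.

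LPS is a component of the outer membrane of Gram-negative bacteria and is recognised by the receptor TLR4 with MD-2 and CD14. TLR4 signals through the adaptor MyD88 to NF-kB and the MAP kinases, and through the adaptor TRIF to IRF3 and interferon-beta. Secreted interferon-beta acts back on the same cells through JAK kinases, STAT proteins and IRF factors, so a macrophage exposed to LPS for hours carries a first wave of NF-kB and MAP kinase target RNAs and a second wave of interferon-stimulated RNAs.

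The libraries carried macrophage RNA at both times. Of the 12 macrophage markers, 12 were tested and 12 had a mean at or over 3.32 at 240 min and at 0 min. Lyz2, the lysozyme gene, stood at 16.97, 17.06 and 17.12 at 240 min and at 17.05, 17.11 and 17.03 at 0 min, where the libraries of both times overlapped. The summed linear value of the 12 markers ran from 361000 to 373000 at 240 min and from 297000 to 308000 at 0 min. By the test given below, 9 of them rose and 1 fell, against 5 and 5 after quantile normalisation, a scaling described further on. Of all genes tested, 39.6% rose and 40.4% fell. Markers of other cells were mostly under the limit: 2 of 10 neutrophil, 1 of 8 B cell, 1 of 9 T and NK cell, 3 of 7 dendritic cell and 3 of 8 fibroblast and stromal markers were tested, and 0 of 8 erythroid, megakaryocyte and mast cell markers. The summed linear value of the T and NK cell markers was 417 to 480 at 240 min and 23.5 to 26.8 at 0 min, through Lck alone, which encodes a tyrosine kinase best known from T cells. Lck read 8.79, 8.89 and 8.69 at 240 min and 4.31, 4.22 and 4.39 at 0 min. Dendritic cell markers summed to 82.4 to 101 at 240 min and 20.1 to 24.3 at 0 min, and the fibroblast sum was 130 to 160 and 31.2 to 39.9 at the same times. Of 8 osteoclast markers 6 were tested, 2 rising and 2 falling, and their sum was 2060 to 2300 at 240 min and 2390 to 2550 at 0 min. Neutrophil markers summed to 26.3 to 29.7 at 240 min and 23.6 to 26 at 0 min, B cell markers to 22.8 to 26.6 and 22.4 to 26.1, and erythroid, megakaryocyte and mast cell markers to 2.25 to 2.94 and 2.5 to 2.82. The part of other cells in the results was not tested. In RNA from whole cultures, fewer cells of a type and less RNA per cell cannot be told apart.

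Replicates lay close together. The median SD between the 3 libraries was 0.068 on the log2 scale at 240 min and 0.067 at 0 min. One library, which enters the main comparison only through the shared spread, stood apart. The library labelled WT 360 min replicate 1 differed from the 3 WT 240 min libraries by a median absolute log2 difference of 0.0771 to 0.0927, and from the other WT 360 min libraries by 0.193 and 0.207. Differences among the WT 240 min libraries were 0.0738 to 0.0842. Of the 1353 genes that differed by 0.5 or more between 360 and 240 min when this library was left out, it lay nearer the 240 min mean in 1223 (90.4%). Statements about 360 min are therefore given with and without it.

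At an adjusted p under 0.05, 9321 of 11656 genes (80.0%) differed between 240 and 0 min. Of these, 4612 were higher at 240 min (39.6% of the genes tested) and 4709 lower (40.4%). The libraries of both times did not overlap in 9599 genes (82.4%), of which 9138 were also called (78.4% of those tested). Most genes therefore passed the test, and the size of the difference is given for each gene named. At least 1 log2 unit was reached by 1634 genes that rose (14%) and 1400 that fell (12%), at least 2 units by 631 that rose (5.41%) and 252 that fell (2.16%). At 4 units or more the split was 110 rises (0.944%) against 2 falls. Further, 162 genes were at or over 3.32 in all 3 libraries at 240 min and under it in all 3 at 0 min, and 154 were the other way round. The deposited log2 scale may pull low values together, so differences of weakly expressed genes can be understated.

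**Figure D1:**
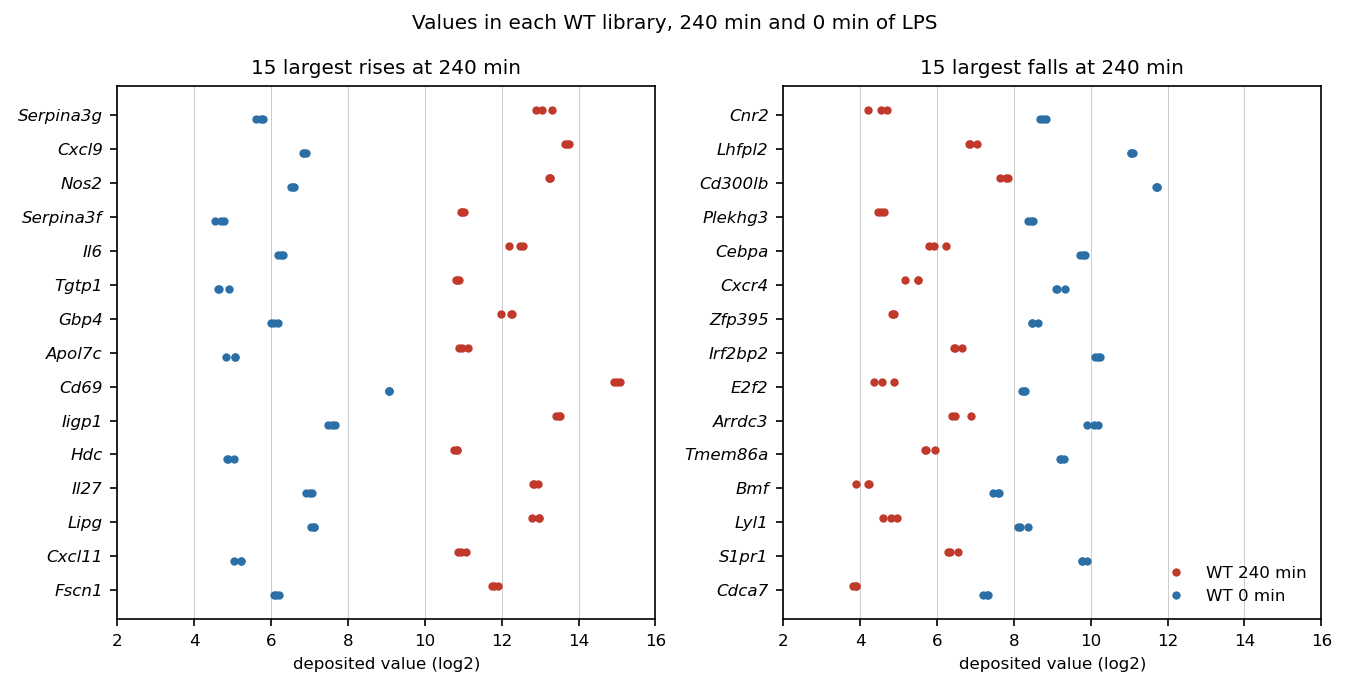
Deposited log2 value (horizontal axis) of the 15 genes with the largest rises and the 15 with the largest falls at 240 min of LPS in WT macrophages, 1 point per library, with 240 min in red above 0 min in blue. In each row the 3 libraries of one time lie close together. They lie apart from those of the other time, which the choice of these genes required. The gaps of the rises, 5.68 to 7.36 log2 units, are wider than those of the falls, -3.40 to -4.27.

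The 15 largest rises joined protease inhibitors, interferon-induced GTPases, chemokines and enzymes. The serpin genes Serpina3g and Serpina3f are neighbours on chromosome 12 (GRCm38, chr12:104236245-104241939 and chr12:104214544-104221129). Serpina3f read 10.93, 11.01 and 10.97 at 240 min and 4.70, 4.55 and 4.78 at 0 min, a rise of 6.30 ± 0.08 (log2 difference ± SE, n = 3 per group), and Serpina3g rose by 7.36 ± 0.15. Both are members of a family of near-identical copies, so their split of shared reads is uncertain. The interferon-inducible GTPase gene Tgtp1 (chr11:48985327-48994172) read 10.84, 10.90 and 10.82 at 240 min and 4.90, 4.64 and 4.62 at 0 min, a rise of 6.13 ± 0.12. Apol7c, an apolipoprotein L family gene, rose by 6.01 ± 0.11. Cd69, known as an early activation antigen of lymphocytes, reached 15.01, 14.93 and 15.07 at 240 min, against 9.07, 9.06 and 9.06 at 0 min, 61.4-fold on the linear scale. Hdc, the enzyme that makes histamine, rose by 5.89 ± 0.08, Fscn1, the actin-bundling protein fascin, by 5.68 ± 0.08, and Lipg, endothelial lipase, by 5.81 ± 0.13.

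The largest falls were in receptors, adaptors and transcription factors. Lhfpl2 read 6.86, 6.83 and 7.03 at 240 min and 11.04, 11.05 and 11.10 at 0 min, 17.8-fold lower at 240 min. Cd300lb, an activating receptor of the CD300 family, read 7.79, 7.84 and 7.65 at 240 min and 11.72, 11.73 and 11.69 at 0 min (-3.95 ± 0.16). Irf2bp2, a partner protein of the transcriptional repressor IRF2, differed by -3.67 ± 0.14, Plekhg3, a guanine nucleotide exchange factor, by -3.90 ± 0.11, and Arrdc3, an alpha-arrestin, by -3.47 ± 0.17. Cxcr4, the receptor for the chemokine CXCL12, and S1pr1, a receptor for sphingosine-1-phosphate, both of which hold or move cells between marrow, blood and tissue, were among the falls. Cxcr4 averaged 5.39 ± 0.20 at 240 min and 9.19 ± 0.13 at 0 min (SD, n = 3 each), and S1pr1 fell by 3.43 ± 0.09.

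Gene lists by role give the rest of the response. The 50 lists hold 990 genes, of which 952 were tested, 573 rose, 264 fell and 115 were not called. Counts are of the members that were tested. All genes tested had a median difference of -0.02, and of -0.10 after quantile normalisation, a scaling that lowers the differences of highly expressed genes most. Counts under that scaling are given beside lists whose balance it moved. Among all genes tested, rises and falls were about equal in number (39.6% and 40.4%), so a list with about as many of each is near that background.

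**Figure D2:**
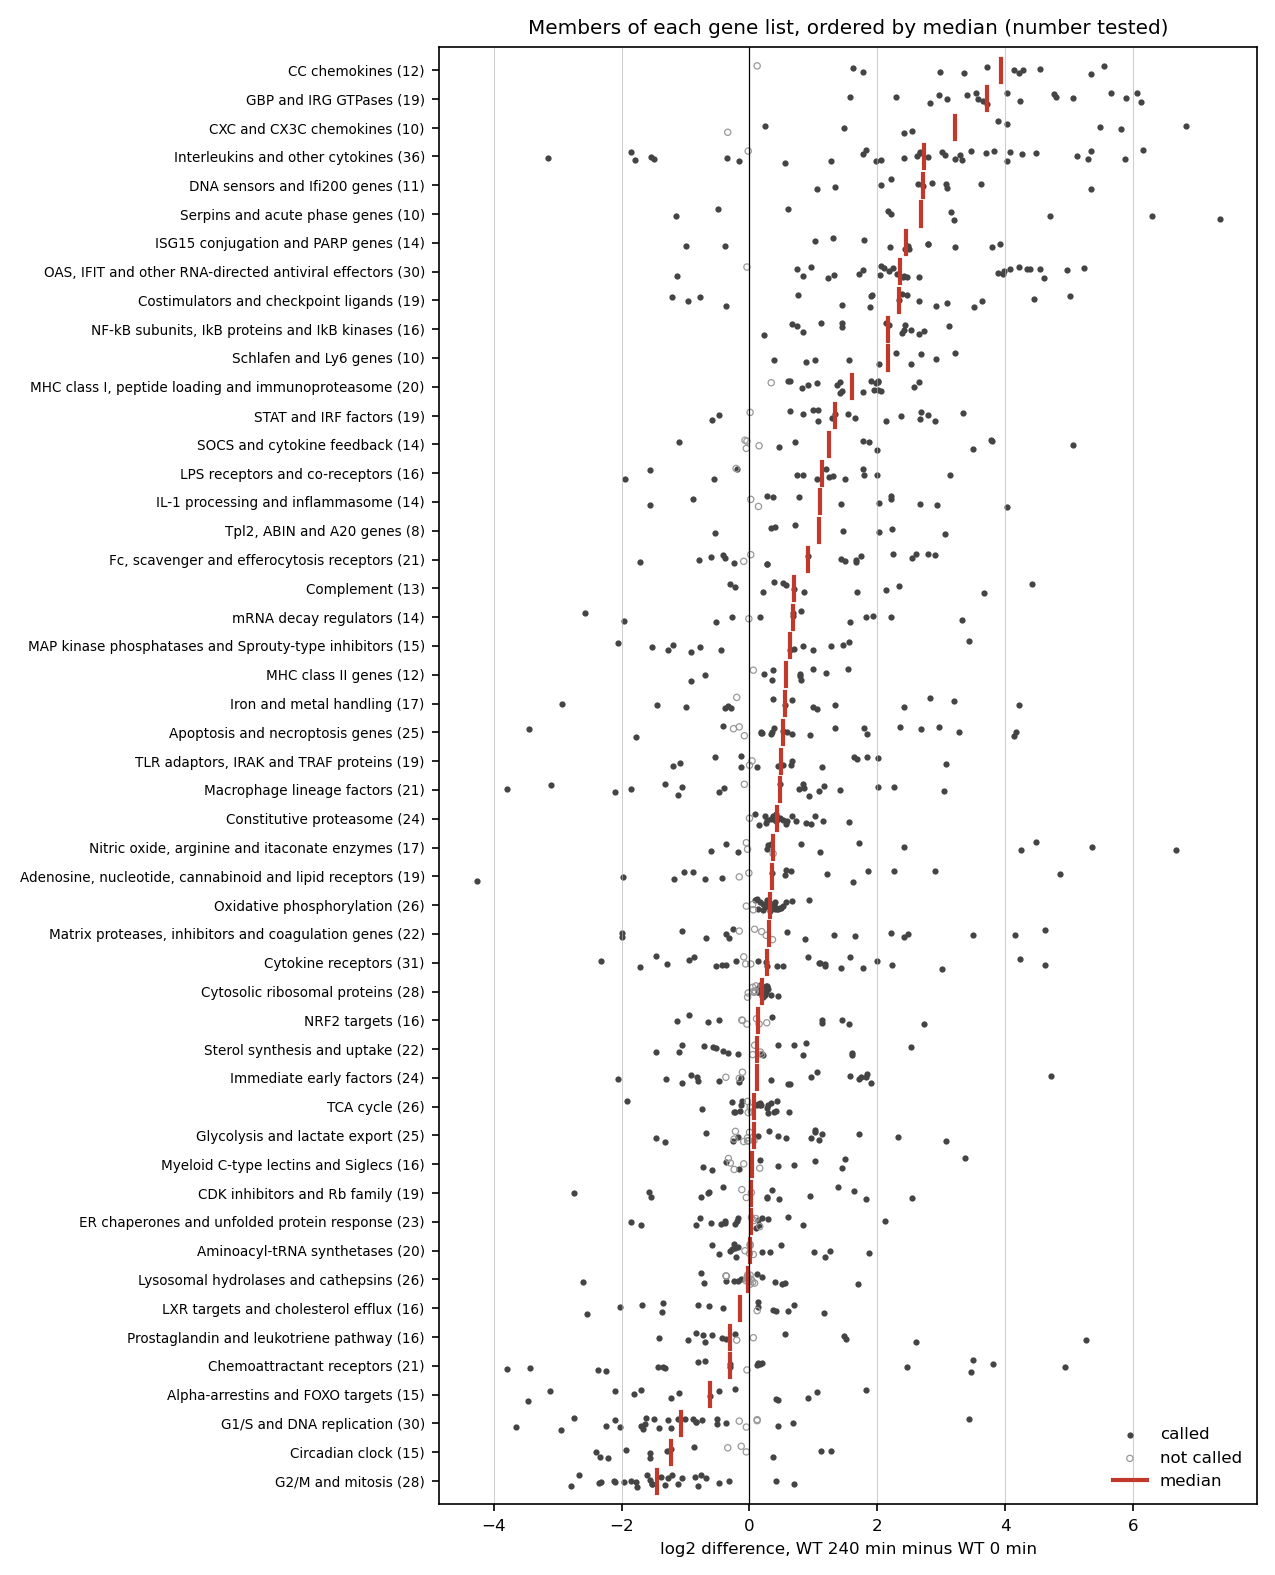
Log2 difference between WT 240 min and WT 0 min (horizontal axis) for the tested members of each of 50 gene lists, ordered by the list's median (red bar). Filled points passed the test and open points did not. Chemokine, GTPase and cytokine lists lie to the right, cell cycle and circadian clock lists to the left, and the ribosomal list has a median of 0.20, a direction that quantile normalisation turns.

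Among LPS receptors and other Toll-like receptors, 11 of 16 tested genes rose and 4 fell (median 1.13). Tlr3, the receptor for double-stranded RNA, read 12.18, 12.12 and 12.13 at 240 min and 9.04, 9.05 and 8.91 at 0 min, a rise of 3.14 ± 0.07. Cd14 rose by 1.06, with 0.22 to 1.07 over the alternative settings. Ly96, which encodes MD-2, rose too (means of 9.09 at 240 min and 7.60 at 0 min), whereas Tlr4 itself (-0.56) and Tlr13, a receptor for bacterial ribosomal RNA in mice (-1.95), fell. Tlr13 read 10.46, 10.51 and 10.43 at 240 min and 12.39, 12.47 and 12.39 at 0 min, without overlap. Among the adaptors and signalling proteins behind these receptors, 12 of 19 rose and 5 fell (median 0.49). Traf1 rose by 3.07, Irak2 by 2.01 and Myd88 by 1.84, while Irak4 fell by 0.54 and Traf3 by 1.08.

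All 16 tested members of the NF-kB list rose (median 2.17), with Ikbkg alone changing direction under quantile normalisation, to -0.15. They range from Nfkbiz, a nuclear IkB protein, at 3.12 ± 0.07, and Nfkbia, the inhibitor that NF-kB itself induces, at 2.73, to the kinase subunits Chuk at 0.67 and Ikbkg at 0.22. Of the genes around Tpl2 and A20, 7 of 8 rose, with Tnfaip3, which encodes A20, at 3.06, Map3k8, which encodes Tpl2, at 2.23, Tnip3 at 2.03 and Tnip2 at 0.33. Tnip2 averaged 9.15 ± 0.17 at 240 min and 8.82 ± 0.05 at 0 min (SD, n = 3 each), and the libraries did not overlap. Otulin, a deubiquitinase of linear ubiquitin chains, fell by 0.54.

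Of 15 phosphatase and Sprouty-type genes, which feed back on MAP kinases, 8 rose and 7 fell (median 0.63). Dusp2, a nuclear phosphatase of ERK and p38, read 11.62, 11.61 and 11.53 at 240 min and 8.16, 8.14 and 8.16 at 0 min, a rise of 3.43 ± 0.09, whereas Dusp6, a cytoplasmic phosphatase of ERK, read 7.47, 7.24 and 7.35 at 240 min and 9.47, 9.47 and 9.27 at 0 min (-2.05 ± 0.12). Of 24 immediate early genes, whose RNA is known to peak soon after a stimulus, 12 were higher at 240 than at 0 min and 9 lower. Under quantile normalisation it was 11 and 10. Against 120 min, 14 of the 24 were higher at 240 min and 7 lower, where 33.5% and 30.7% of all genes were. Nr4a3, an orphan nuclear receptor, stood 4.72 ± 0.17 above 0 min, and Klf2, a zinc finger factor that restrains macrophage activation, 2.05 below it. Fos differed by -0.17, Jun by -0.14 and Egr1 by 0.34, calls lost under 4, 4 and 8 of 17 alternatives. Of 14 genes that control mRNA decay, 9 rose and 4 fell. Arid5a, known to stabilise Il6 mRNA, rose by 3.32 and Zfp36, whose product tristetraprolin binds AU-rich elements, by 1.93. Its relatives Zfp36l1 and Zfp36l2 fell by 2.58 and 1.97.

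Of 36 tested cytokine genes, 28 rose and 7 fell, with a median of 2.74. Il12b, which encodes a subunit shared by IL-12 and IL-23, read 14.14, 13.73 and 13.94 at 240 min and 8.59, 8.57 and 8.60 at 0 min, a rise of 5.35 ± 0.10. Il27 (5.88 ± 0.17), the vasoconstrictor peptide gene Edn1 (5.29 ± 0.05) and Tnfsf10, which encodes the death ligand TRAIL (5.13 ± 0.09), stood near it, and Il1a, Il1b and Tnf rose by 4.27, 4.03 and 3.47. The regulators Il10, Il18bp and Il1rn rose too, by 3.01, 3.06 and 1.98. Falls concerned growth factors and 1 interleukin, namely Il16 (-3.15), Vegfa (-1.85), Tgfb3 (-1.79), Pdgfb (-1.54), Pdgfa (-1.49), Igf1 (-0.35) and Tgfb1 (-0.17). Il16 read 4.98, 4.83 and 4.84 at 240 min and 8.12, 8.07 and 7.93 at 0 min.

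Of 12 CC chemokines, 11 rose and 0 fell, with a median of 3.93, the highest of the 50 lists, and of 10 tested CXC and CX3C chemokines, 9 rose and 0 fell (median 3.21). Ccl22, a ligand of CCR4, read 15.07, 14.87 and 14.93 at 240 min and 9.65, 9.59 and 9.61 at 0 min, 40.4-fold higher, and its neighbour on chromosome 8, Ccl17, rose by 4.54 ± 0.13. The CXCR3 ligand genes Cxcl9, Cxcl10 and Cxcl11 lie side by side on chromosome 5 (from 92321347 to 92365485) and rose by 6.83, 5.48 and 5.81. GENCODE marks Cxcl11 as a polymorphic pseudogene. The neutrophil attractants Cxcl1, Cxcl2 and Cxcl3, on the same chromosome, rose by 2.41, 2.54 and 4.03. Ccl6 (0.12) and Cxcl14 (-0.34) did not pass the test.

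The receptors through which these cells sense attractants went both ways, with 9 of 21 higher and 11 lower (median -0.30), and 6 and 15 under quantile normalisation. Fpr2 and Fpr1, receptors for bacterial formyl peptides, rose by 4.93 ± 0.12 and 3.81 ± 0.14. Fpr2 read 9.80, 9.68 and 9.86 at 240 min and 4.90, 4.71 and 4.95 at 0 min. Gpr84, a receptor for medium-chain fatty acids, averaged 11.84 at 240 min and 8.34 at 0 min, and Ccrl2 rose by 3.47 and Ccr7, the receptor that guides cells to lymph nodes, by 2.47. Besides Cxcr4 and S1pr1, the falls held Gpr183, a receptor for oxysterols (-2.37), C5ar2 (-1.43), Ccr2 (-1.32) and Ltb4r1 (-0.80).

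Of 31 cytokine receptor genes, 18 rose and 10 fell, against 13 and 16 under quantile normalisation. The alpha chains for IL-2 and IL-15, Il2ra and Il15ra, rose by 4.63 and 4.24, and Il15 itself by 3.82. Both IL-6 receptor genes fell, Il6ra (-2.33) and Il6st (-1.29), and so did Tgfbr1 (-1.72) and Ifngr1 (-0.95). In the list of SOCS proteins and related feedback genes, 9 of 14 rose and 1 fell (4 under quantile normalisation). Socs1, an inhibitor of JAK kinases, read 10.79, 10.74 and 10.86 at 240 min and 5.74, 5.65 and 5.78 at 0 min, a rise of 5.07 ± 0.14, and Cish rose by 3.49. Of 19 STAT, IRF and JAK genes, 16 rose and 2 fell (median 1.34): Jak2 rose by 3.34, Irf1 by 2.90, Stat5a by 2.80 and Irf7 by 2.69, and Stat6 (-0.48) and Irf4 (-0.58) fell, Irf4 with no call under quantile normalisation (-0.23, limma adjusted p 0.0717).

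Most interferon-stimulated genes listed rose. Of 30 RNA-directed antiviral genes, 28 rose and 1 fell (median 2.35). The 8 genes of the oligoadenylate synthetase family, not all of which make active enzymes, rose, by 0.83 for Oas1c up to 4.34 for Oasl1. Of 19 tested GTPases of the GBP and IRG families, 19 rose (median 3.72, from 1.57 to 6.13). These proteins attack the vacuoles of intracellular microbes. Gbp5, Gbp7, Gbp3, Gbp2b and Gbp2 lie on chromosome 3 between 142493978 and 142638008, Gbp8, Gbp9, Gbp4, Gbp10, Gbp6 and Gbp11 on chromosome 5 between 105014150 and 105346472, and members of both clusters rose. Gbp4, Gbp8 and Gbp9 overlap in the annotation and many GBP genes are close copies, so their separate values are uncertain. Of 11 DNA sensors, 11 rose (median 2.72). Ifi205 read 14.38, 14.43 and 14.31 at 240 min and 9.08, 9.07 and 8.93 at 0 min, a rise of 5.35 ± 0.06. The 10 tested Schlafen and Ly6 genes rose (median 2.16), and of 14 ISG15 and PARP genes 12 rose and 2 fell, the falls being the DNA repair genes Parp1 and Parp2 (-0.38).

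The promoters of 4 genes of this group are shown because they hold the core of the interferon-stimulated response element, the sequence that IRF factors are known to bind. Each is the stretch of 200 bases before the gene's start, on the gene's strand, from RefSeq (GRCm38.p6), with each match to GAAANNGAA on either strand in capitals. Tgtp1 is at chr11:48992247-48992446, minus strand, inside the longer GENCODE gene, with its match starting at -77 from the start. Cxcl9 is at chr5:92328080-92328279, minus strand, with its match at -175. Rsad2, the antiviral enzyme viperin, is at chr12:26456453-26456652, minus strand, and Ifit1, which binds foreign RNA ends, at chr19:34640689-34640888, plus strand, with 3 matches, 2 of which overlap.
Tgtp1: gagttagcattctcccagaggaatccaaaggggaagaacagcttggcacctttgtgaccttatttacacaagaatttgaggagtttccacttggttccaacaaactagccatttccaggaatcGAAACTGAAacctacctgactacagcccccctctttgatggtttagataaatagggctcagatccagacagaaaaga
Cxcl9: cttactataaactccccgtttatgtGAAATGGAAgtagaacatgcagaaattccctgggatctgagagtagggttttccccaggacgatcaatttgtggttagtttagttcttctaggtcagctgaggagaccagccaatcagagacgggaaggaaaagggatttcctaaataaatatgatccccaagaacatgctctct
Rsad2: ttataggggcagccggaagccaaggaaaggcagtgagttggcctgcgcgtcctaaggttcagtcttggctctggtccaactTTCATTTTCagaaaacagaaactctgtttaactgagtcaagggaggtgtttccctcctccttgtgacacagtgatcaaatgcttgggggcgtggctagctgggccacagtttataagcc
Ifit1: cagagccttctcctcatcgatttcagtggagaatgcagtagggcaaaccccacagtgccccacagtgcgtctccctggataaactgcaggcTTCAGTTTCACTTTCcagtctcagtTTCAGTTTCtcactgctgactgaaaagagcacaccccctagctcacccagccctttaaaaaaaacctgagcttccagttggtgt

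Rsad2 rose by 5.24 ± 0.07 and Ifit1 by 4.54 ± 0.08. Ifit1 read 15.53, 15.57 and 15.50 at 240 min and 11.08, 11.04 and 10.85 at 0 min. Over all genes tested with 1 RefSeq window of 300 bases (250 before to 50 after the start, 7449 genes, 63.9%), 7.57% held the GAAANNGAA core. The share was 90.0% for the GBP and IRG list (9 of 10 windows), 70.0% for the antiviral list (14 of 20) and 33.3% for the MHC class I list (5 of 15). It was 20.4% of 383 windows of genes that rose by 2 or more and 4.23% of 142 windows of genes that fell by 2 or more. The cytosolic ribosomal list, whose median difference was 0.20 with 21 of 28 higher, and under quantile normalisation 28 of 28 lower, held it in 6 of 17 windows (35.3%), so the core was also frequent where RNA changed little. A match is a description of the letters, not evidence of binding.

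Cytokine promoters are shown for a different motif, the NF-kB type GGANTTTCC, again in capitals on either strand within the 200 bases before the start. Il6 lies at chr5:30012914-30013113, plus strand, with the match 43 bases before the start, and Ifnb1, the interferon-beta gene, at chr4:88522795-88522994, minus strand, with the match 115 bases before it.
Il6: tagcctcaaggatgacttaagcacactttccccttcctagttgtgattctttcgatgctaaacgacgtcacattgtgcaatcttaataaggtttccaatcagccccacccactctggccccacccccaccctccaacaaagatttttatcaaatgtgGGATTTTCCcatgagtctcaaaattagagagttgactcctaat
Ifnb1: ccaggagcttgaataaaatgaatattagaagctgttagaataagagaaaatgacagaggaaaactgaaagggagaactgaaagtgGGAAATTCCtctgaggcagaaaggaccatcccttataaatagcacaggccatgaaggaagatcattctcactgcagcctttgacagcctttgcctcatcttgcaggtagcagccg

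Il6 read 12.48, 12.19 and 12.56 at 240 min and 6.26, 6.19 and 6.30 at 0 min. Ifnb1 read 8.46, 8.06 and 8.55 at 240 min and 4.68, 4.53 and 4.76 at 0 min, a rise of 3.70 ± 0.22. The NF-kB type motif was held by 1.38% of all windows, by 5.74% of the windows of genes that rose by 2 or more and by 1.41% of those that fell by 2 or more. It was held by 4 of 8 windows of the CXC and CX3C chemokines. These include the related genes Cxcl1, Cxcl2 and Cxcl3, which share the match GGAATTTCC. The CC chemokines, whose median rise was the highest, held it in 0 of 7 windows. The NF-kB list held it in 1 of 9 and the cytosolic ribosomal list in 2 of 17.

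**Figure D3:**
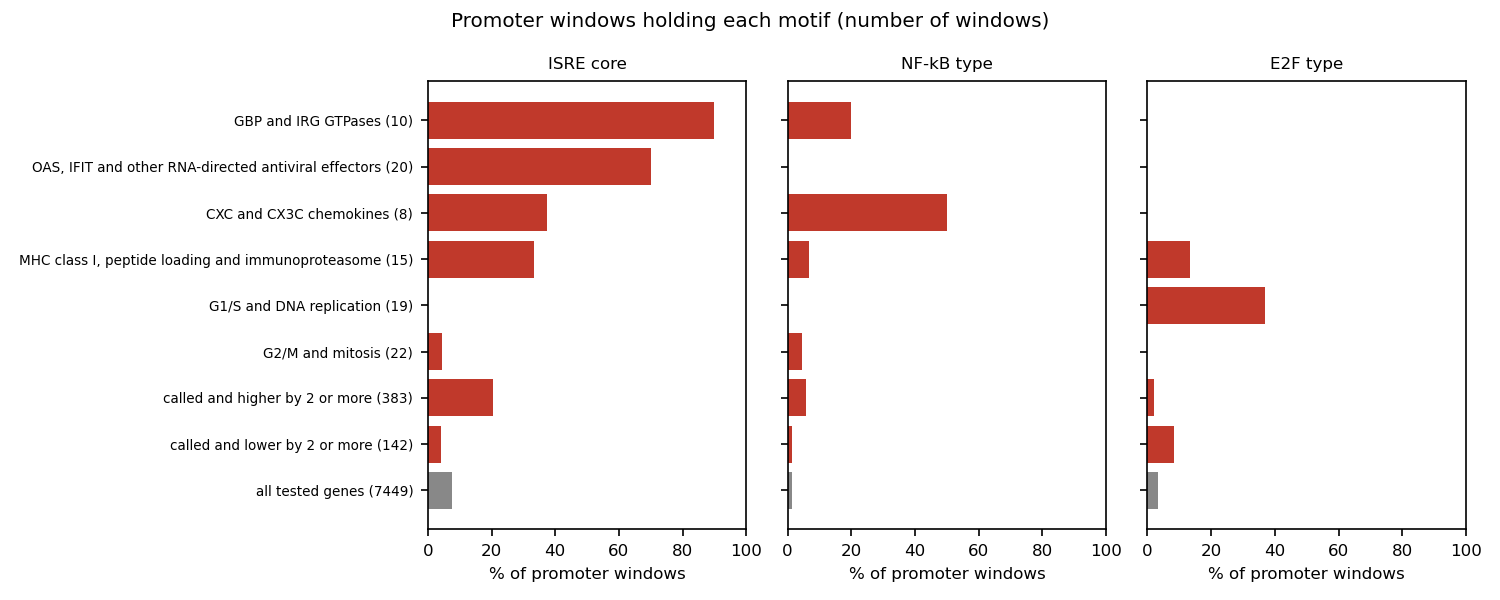
Share of promoter windows (horizontal axis, percent) that hold the interferon-stimulated response element core, the NF-kB type motif and the E2F type motif, for 6 gene lists, for the genes that rose or fell by 2 log2 units or more, and for all genes tested in grey. The number of windows stands in parentheses. The highest bars for the first and second motif are the GBP and IRG list (90.0%) and the CXC and CX3C chemokine list (50%). For the third motif it is the G1/S list (36.8%).

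Of 20 MHC class I, peptide loading and immunoproteasome genes, 19 rose and 0 fell (median 1.61), led by Nlrc5, the transactivator of class I genes, at 2.66 ± 0.05 and the peptide transporter Tap1 at 2.58. H2-K1, a class I heavy chain, rose by 0.91, but lay at -0.08 under quantile normalisation, where 16 of the list rose and 2 fell. Of 24 constitutive proteasome genes, 23 rose and 0 fell, by small amounts (median 0.43), against 10 and 6 under quantile normalisation. Among MHC class II genes 9 of 12 tested rose and 2 fell (8 and 3 under quantile normalisation), with the transactivator Ciita at 1.54. Of 19 costimulators and checkpoint ligands, 15 rose and 4 fell (median 2.34). Cd274, which encodes PD-L1, read 14.31, 14.40 and 14.33 at 240 min and 9.90, 9.89 and 9.89 at 0 min, 21.9-fold higher. Slamf1, Icam1 and Cd86 rose by 3.64, 3.51 and 2.66, while Havcr2, which encodes TIM-3, fell by 1.22.

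In the nitric oxide, arginine and itaconate list 11 of 17 tested genes rose and 3 fell (10 and 7 under quantile normalisation). Irg1, which makes itaconate from a TCA cycle intermediate, averaged 16.01 ± 0.06 (SD, n = 3) at 240 min, against 10.66, 10.66 and 10.65 at 0 min, a rise of 5.36 ± 0.04. The arginine carrier Slc7a2 and Gch1, which makes the cofactor of nitric oxide synthase, rose by 4.25 and 2.41. In the prostaglandin and leukotriene pathway 5 of 16 genes rose and 9 fell. The inducible cyclooxygenase Ptgs2 rose by 5.26 ± 0.10 and the prostaglandin E synthase Ptges by 2.60. The constitutive cyclooxygenase Ptgs1 fell by 0.96, the leukotriene enzyme Alox5 by 0.83 and the prostaglandin-degrading Hpgd by 1.41.

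Of 25 glycolysis genes, 12 rose and 5 fell (median 0.07), against 8 and 14 under quantile normalisation. The transporter Slc2a6, the regulator Pfkfb3 and Hk2 rose by 3.08, 2.32 and 1.71, the transporter Slc2a3 fell by 1.46, and Ldha (0.07) and Pkm (-0.03) did not pass the test. Of 26 TCA cycle genes, 13 rose and 8 fell, most by under 1 log2 unit, and under quantile normalisation 3 rose and 20 fell. The exception was Pdk2, a kinase that switches off pyruvate dehydrogenase, at -1.92. In the iron list 10 of 17 rose and 6 fell. The copper-bearing ferroxidase Cp and the siderophore-binding Lcn2 rose by 4.21 and 3.20, and Slc40a1, the iron exporter ferroportin, read 7.23, 7.30 and 7.23 at 240 min and 10.15, 10.22 and 10.21 at 0 min (-2.94 ± 0.05).

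Survival and death genes leaned upwards, with 19 of 25 higher and 3 lower (median 0.52), and 12 and 6 under quantile normalisation. The BCL2 relatives Bcl2a1a, Bcl2a1d and Bcl2a1b rose by 4.17, 4.14 and 3.28, values that are uncertain because these copies are nearly identical. Cflar, an inhibitor of caspase-8, and Mlkl, the effector of necroptosis, rose by 2.97 and 2.68. Bmf, a pro-apoptotic BH3-only gene, read 3.90, 4.23 and 4.20 at 240 min and 7.60, 7.47 and 7.62 at 0 min (-3.45 ± 0.14), and Bcl2 fell by 1.78. Of 14 inflammasome genes, 10 rose and 2 fell. Casp4, which senses LPS in the cytosol and is also known as caspase-11 in mice, rose by 2.94 ± 0.06, Nlrp3 by 2.21 and Casp1 by 2.02, and Nlrp1b fell by 1.56. Complement genes rose in 11 of 13 (7 under quantile normalisation, where 5 fell), with Cfb at 4.42 and C3 at 3.67.

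Cell cycle genes fell. Of 30 genes of G1/S and DNA replication, 23 fell and 3 rose (median -1.06), and of 28 genes of G2/M and mitosis, 26 fell and 2 rose (median -1.46). Cdc6, which loads the replicative helicase, read 4.76, 4.58 and 4.67 at 240 min and 7.53, 7.72 and 7.62 at 0 min (-2.95 ± 0.11). Helicase subunits fell by 0.51 for Mcm6 up to 2.03 for Mcm2. Kif23, a kinesin of cytokinesis, fell by 2.79, and Cenpf, a kinetochore protein gene, fell by 2.67. Against this direction, the cyclin D2 gene Ccnd2 read 14.24, 14.19 and 14.05 at 240 min and 10.74, 10.76 and 10.65 at 0 min, a rise of 3.44 ± 0.07, Ccne1 rose by 0.68, Mcm10 by 0.44, Tpx2 by 0.69 and Cenpe by 0.41. Ccnd1 fell by 1.69. Among CDK inhibitors and Rb family genes 9 of 19 rose and 7 fell, against 6 and 7 under quantile normalisation. Cdkn1a, which encodes the inhibitor p21, rose by 2.55 ± 0.09, and E2f7, a repressor of E2F targets, fell by 2.74.

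The promoters of Cdc6 and of Cdk2, the kinase of S phase entry (-1.23 ± 0.07), are shown because they hold an E2F type motif, TTTCCCGC or TTTGGCGC on either strand, in capitals in the 200 bases before the start. Cdc6 lies at chr11:98907951-98908150, plus strand, with the match at -138 from the start, and Cdk2 at chr10:128705052-128705251, minus strand, with the match at -140.
Cdc6: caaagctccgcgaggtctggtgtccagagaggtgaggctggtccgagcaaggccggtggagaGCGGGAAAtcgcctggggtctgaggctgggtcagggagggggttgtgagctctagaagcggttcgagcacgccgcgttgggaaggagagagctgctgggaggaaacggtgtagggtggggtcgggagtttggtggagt
Cdk2: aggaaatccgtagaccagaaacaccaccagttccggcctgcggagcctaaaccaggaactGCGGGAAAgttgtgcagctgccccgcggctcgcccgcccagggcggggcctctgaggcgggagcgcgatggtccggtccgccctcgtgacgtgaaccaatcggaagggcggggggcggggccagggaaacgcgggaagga

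The E2F type motif was held by 3.38% of all windows, by 36.8% of the G1/S list (7 of 19), by 0 of 22 windows of the G2/M list, by 2.09% of the windows of genes that rose by 2 or more and by 8.45% of those that fell by 2 or more. In the G2/M list 15 of 22 windows (68.2%) held TTTGAA, the letters of the cell cycle homology region, against 12.2% of all windows. CCAAT was held by 18 of 22 (81.8%), against 40.1%. Lists of other roles also held these letters often. TTTGAA was in 8 of 13 windows of the survival and death list and 5 of 10 of the GBP and IRG list. CCAAT was in 11 of 12 windows of the sterol list and 17 of 21 of the unfolded protein response list. Among genes that fell by 2 or more, 19.7% held TTTGAA and 49.3% CCAAT, against 15.7% and 36.8% of those that rose by 2 or more.

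Of 21 tested transcription factors of macrophage identity, 11 rose and 9 fell, against 8 and 9 under quantile normalisation. Cebpa read 5.92, 6.24 and 5.80 at 240 min and 9.79, 9.71 and 9.86 at 0 min, while Cebpd rose by 3.05 and Cebpb by 1.41. Bhlhe41 (-3.11) and Mef2d (-1.85) fell, whereas Spi1, which encodes PU.1, rose by 1.09, with 0.30 to 1.12 over the alternative settings. Among Fc, scavenger and efferocytosis receptors 13 of 21 rose and 6 fell, against 10 and 10 under quantile normalisation. Fcgr4 rose by 2.91, Marco by 2.79 and the inhibitory Fcgr2b by 2.24, and Cd163, the haemoglobin scavenger receptor, fell by 1.72. The lectin gene Clec4e, known as Mincle, rose by 3.38. Adora2a, the adenosine receptor that raises cAMP, rose by 4.86 ± 0.09, at 10.49, 10.43 and 10.40 at 240 min and 5.50, 5.48 and 5.75 at 0 min. Its list held 10 rises and 7 falls among 19 genes.

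The 240 min libraries were set against the neighbouring WT times to show which genes were still moving. Against 120 min, 7491 genes differed at 240 min (64.3%), 3907 higher (33.5%) and 3584 lower (30.7%). Several of the largest gains over 120 min were in genes still near their 0 min level at 120 min. Asap3, a GTPase-activating protein for Arf proteins, read 8.67, 8.74 and 8.86 at 240 min and 4.53, 4.31 and 3.96 at 120 min (4.49 ± 0.22), and had read 4.26, 3.95 and 3.84 at 0 min. Fbn1, the matrix protein fibrillin-1, read 7.17, 7.03 and 7.03 at 240 min and 3.07, 3.04 and 3.26 at 120 min, and Cacnb2, a calcium channel subunit, averaged 5.89 ± 0.11 (SD, n = 3) at 240 min and read 2.08, 1.94 and 2.29 at 120 min, values at 120 min that lie under the minimum for testing. Clic5 and Angpt1 rose by 3.98 and 3.99 between these times. Nlrc5 also rose late, by 2.60 ± 0.05 over 120 min.

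A second group had risen at 120 min and had fallen again by 240 min, in some genes to near the 0 min level. Bcor, a co-repressor that works with BCL6, averaged 9.15 at 0 min, 11.51 at 120 min and 9.03 at 240 min, and its difference between 240 and 0 min (-0.12 ± 0.07) did not pass the test. Slco4a1, an organic anion transporter, averaged 5.51 at 0 min, 8.26 at 120 min and 5.69 at 240 min (0.18 ± 0.15 against 0 min, not called). Rnd1, a small GTPase gene, averaged 6.09, 10.82 and 8.48 at the same times and stayed above 0 min. Frmd6 averaged 9.64 at 0 min, 11.09 at 120 min and 8.14 at 240 min, and so ended below 0 min.

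Between 360 and 240 min 3066 genes differed (26.3%), 1437 higher at 360 min (12.3%) and 1629 lower (14%). Without the library labelled 360 min replicate 1 it was 5139 (2484 and 2655), without WT 360 min replicate 2 it was 1131 and without replicate 3 it was 1074. A fit of the 6 libraries alone called 0 genes, with 1875 at an unadjusted p under 0.05 (limma). Saa3, an acute phase gene, read 9.86, 12.69 and 11.51 at 360 min and 9.88, 10.01 and 9.78 at 240 min, where replicate 1 of 360 min lies among the 240 min libraries. Rab7b read 9.91, 11.70 and 11.74 at 360 min and 10.04, 9.94 and 9.92 at 240 min, and Hhex 9.81, 8.13 and 8.11 at 360 min and 9.59, 9.62 and 9.87 at 240 min, with the same library apart in each case.

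Set against the average of 120 and 360 min, 5080 genes differed at 240 min (43.6%), 2802 higher (24.0%) and 2278 lower (19.5%), and without the library labelled 360 min replicate 1 there were 5493. A gene that climbs to 240 min and then stays up also counts as higher here. Of the 8 largest values, Serpina3g (2.62 ± 0.13), Asap3 (2.51 ± 0.19), Gbp4 (2.06 ± 0.08) and Fbn1 (2.04 ± 0.13) had differences between 360 and 240 min of 0.47, -0.54, -0.14 and -0.12 in all libraries, and of 0.74, -0.88, -0.12 and -0.18 without the library labelled 360 min replicate 1. Cacnb2 read 5.37, 5.05 and 5.04 at 360 min, below its 3 libraries at 240 min (-0.73 between those times, and -0.84 without the library labelled 360 min replicate 1).

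**Figure D4:**
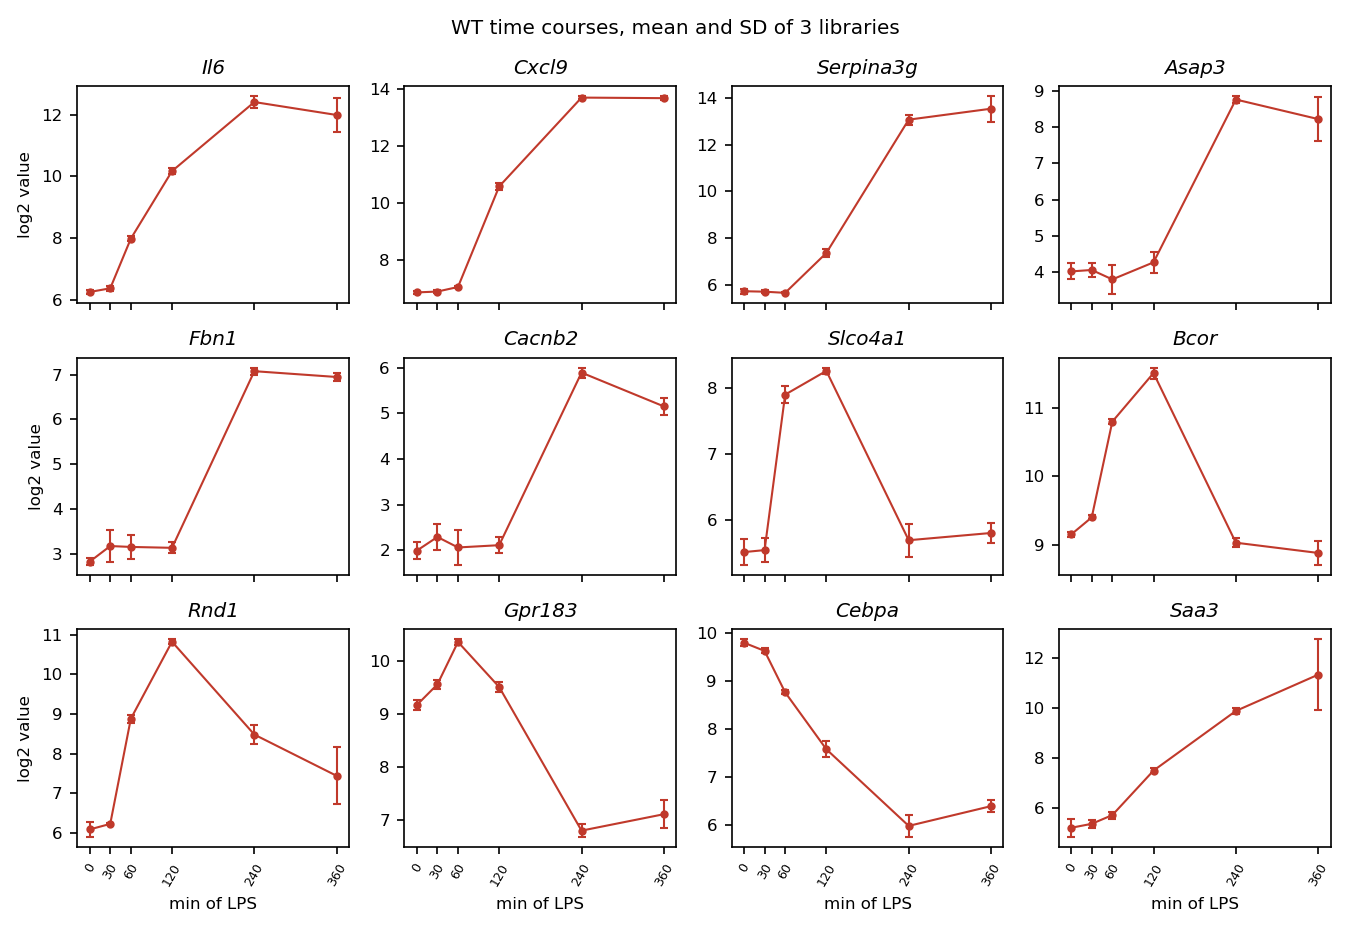
Mean deposited log2 value (vertical axis, SD as bars, 3 libraries) of 12 genes in WT macrophages at 0, 30, 60, 120, 240 and 360 min of LPS (horizontal axis). Asap3, Fbn1 and Cacnb2 stay at their starting level to 120 min and are high at 240 min, whereas Slco4a1 and Bcor are high at 120 min and back near the start at 240 min. The wide bar of Saa3 at 360 min includes the library labelled replicate 1, at 9.86.

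The same comparison in D310N macrophages, in other libraries, called 9224 genes (79.1%), 4541 higher at 240 min (39.0%) and 4683 lower (40.2%). Tgtp1 rose by 5.67 ± 0.12 in D310N cells and 6.13 ± 0.12 in WT cells, Il12b by 4.95 ± 0.10 and 5.35 ± 0.10, in the same order of genotypes, and Cebpa differed by -4.08 ± 0.09 in D310N cells and -3.80 ± 0.09 in WT cells. These single genes do not stand for their kind. The median of the GBP and IRG list was 3.98 in D310N cells and 3.72 in WT cells. For the antiviral list it was 2.53 and 2.35, and for the cytokine list 2.68 and 2.74, in the same order. The difference of the response between genotypes passed the test in 227 genes (1.95%), 116 with a higher value in D310N (0.995%) and 111 with a lower one (0.952%). This count moved with the libraries used, from 92 without D310N 0 min replicate 1 to 627 without the library labelled WT 360 min replicate 1.

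Among the 8 largest of these differences in genes that averaged 50 or more (linear value) in any of the 4 groups, some lay in the values at 240 min and some in those at 0 min. Cytip, which binds the integrin regulator cytohesin-1, read 8.61, 8.40 and 8.60 in D310N cells at 240 min and 9.71, 9.70 and 9.62 in WT cells at 240 min, while at 0 min it read 9.39, 9.56 and 9.38 in D310N cells and 9.39, 9.49 and 9.47 in WT cells. The difference of the response was -1.13 ± 0.16. Il23a, the subunit of IL-23 that pairs with the Il12b product, and Olr1, a scavenger receptor for oxidised LDL, rose further in D310N cells, Il23a by 2.87 ± 0.20 in D310N cells and 1.77 ± 0.20 in WT cells, and Olr1 by 3.59 ± 0.16 in D310N cells and 2.61 ± 0.16 in WT cells. Il23a lost its call under 12 of 23 alternatives and Olr1 under 4, mostly with 1 library left out.

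Egr2, an immediate early zinc finger factor, lay together at 240 min, with 7.75, 7.84 and 7.75 in D310N cells and 7.80, 7.89 and 7.78 in WT cells, and apart at 0 min, with 9.93, 9.42 and 10.09 in D310N cells and 8.72, 8.74 and 8.76 in WT cells. Its response therefore differed by -1.11 ± 0.14. The cyclin F gene Ccnf read 7.37, 7.38 and 7.35 in D310N cells at 0 min and 8.35, 8.32 and 8.32 in WT cells, with responses of -2.21 in D310N cells and -3.20 in WT cells (difference 0.99 ± 0.18). The mitotic genes Bub1b and Cdc20 fell by 1.18 and 1.42 in D310N cells and by 2.12 and 2.35 in WT cells. In the G2/M list 5 of 28 genes were called with a higher difference, against 0.995% of all genes. Of 24 immediate early genes, 5 were called with a lower one, against 0.952% of all genes. They include Klf4, whose response was lower in D310N than in WT cells (difference -0.90 ± 0.16). They also include Fosl1, with -1.33 ± 0.18 and -0.37 ± 0.18, a call lost under 11 of 23 alternatives. Other lists held called differences too, such as 3 of 15 phosphatase and Sprouty-type genes lower and 4 of 30 antiviral genes higher. The lists were not tested as sets, and their members were chosen with earlier results of these data known. These counts therefore cannot show that a list differed between genotypes more than other genes did. Dusp2 rose by 2.87 in D310N cells and 3.43 in WT cells. G530011O06Rik, an X-linked transcript, differed between the genotypes at both times, at 8.62, 8.71 and 8.53 in D310N cells and an average of 11.91 ± 0.09 (SD, n = 3) in WT cells at 240 min, and at 7.06, 7.07 and 7.11 in D310N cells and 9.19, 9.15 and 8.97 in WT cells at 0 min.

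**Figure D5:**
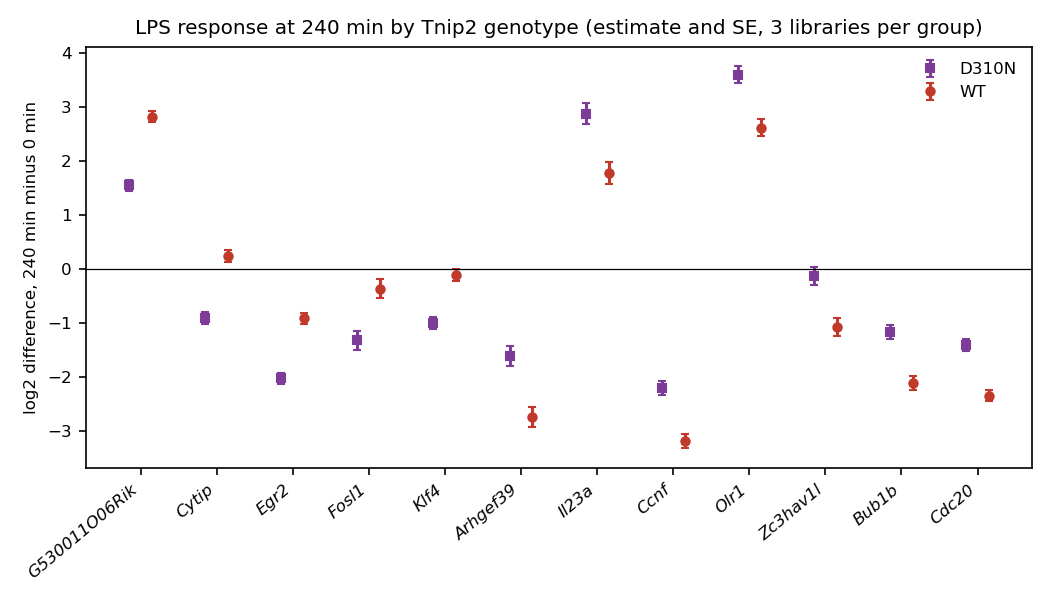
Log2 difference between 240 and 0 min of LPS (vertical axis, estimate and SE, 3 libraries per group) in D310N macrophages (purple squares) and WT macrophages (red circles) for 12 genes whose response differed between genotypes. The 5 genes on the left have lower values in D310N cells and the 7 on the right have higher ones, from -0.90 to -1.26 and from 0.93 to 1.13 log2 units.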

How the data were processed

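RNA was sequenced as single-end reads of 75 bp. Per the submitters' processing notes, STAR 2.5.2a, RSEM 1.2.31, DESeq2 1.10.1 and the build mm10 were used. The authors deposited normalised log2 values for 16439 gene names. The transformation is not given in the sources used here, and one that shrinks low values would understate the differences of weakly expressed genes. Read depth per library is unknown, so no counting interval is given. Of the names, 23 had turned into dates and were left out. The header of the deposited table writes the mutation as D309N and the titles as D310N.

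The model was fitted to genes at or over 3.32 in at least 3 libraries, with limma 3.58.1 (R 4.3.3), straight from the deposited log2 values. It held 1 mean per group over all 36 libraries, leaving 24 residual degrees of freedom, with a trend of variance on level. Two-sided p-values received a Benjamini-Hochberg adjustment, separately for each of 6 comparisons, and those under 0.05 were called. Differences are log2 ± SE. The plan foresaw log2(value + 1) of linear values. The values proved to be logarithms already, so pseudocounts of 0.5, 1 and 8 were added to back-transformed values as alternatives.

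Members and lists were chosen with earlier results of these data known. Genes were named by rule: the 15 largest rises and falls with a mean of at least 5.64 in the higher group and no overlap, the most changed and the contrary members of each list, the largest values against 120 and 360 min, the 8 largest differences between genotypes, and cell markers. Fosl1, Klf4, Bub1b, Cdc20 and Dusp2 were named for the genotype difference after their values were seen. Some genes that the rule names are given in figures only or are not reported here.

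Simulated data for 11656 genes were built on the WT 0 min means with independent normal noise. Of 50 genes each changed by 0.25, 0.5, 1 and 2, 54%, 80%, 98% and 100% were recovered, with 9 false calls among 11456. Those 11456 genes were left unchanged, whereas 80.0% of genes were called in the data. The simulated shares therefore do not give the recovery or the false calls of the main comparison itself. Positions are GENCODE M21 on GRCm38, matched by symbol for 11571 genes (99.3%). Promoter windows are RefSeq's on GRCm38.p6, and genes with more than 1 window were left out of shares. Counting is not stated to use strand, so overlapping genes and close copies are uncertain. Correlations of same-numbered libraries at 240 and 0 min are given below, and the main fit did not treat them as pairs. Alternatives were other filters and scalings, pseudocounts, library weights, a replicate block, fits of the compared groups alone, and leaving out each library.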

Additional observations from a re-analysis of the deposited data

Results flagged for a closer look

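The response to 240 min of LPS differed between D310N and WT macrophages in 227 genes by limma's test of the difference itself (adjusted p under 0.05). Each value below is the log2 response of D310N cells minus that of WT cells.

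Lower values in D310N cells were found for G530011O06Rik (-1.26), Cytip (-1.13), Egr2 (-1.11), Fosl1 (-0.97), Klf4 (-0.90) and Dusp2 (-0.57). Higher values were found for Arhgef39 (1.13), Il23a (1.09), Ccnf (0.99), Olr1 (0.98), Zc3hav1l (0.94), Bub1b (0.94) and Cdc20 (0.93). Arhgef39, a guanine nucleotide exchange factor gene, fell by 1.62 in D310N cells and 2.75 in WT cells, and lost its call without WT 240 min replicate 1 (0.92). Dusp2 lost its call without D310N 0 min replicate 3 (-0.42). Zc3hav1l lost it under 10 of 23 alternatives. G530011O06Rik, Cytip, Egr2, Klf4, Ccnf, Bub1b and Cdc20 kept theirs under all 23. At 0 min Egr2 was higher in D310N than in WT cells, and Ccnf, Bub1b and Cdc20 were lower. For Egr2, whose values lay together at 240 min, the difference lay in the unstimulated libraries. For Ccnf, Bub1b and Cdc20 at least part of it did.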

How the results depend on the processing

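The counts for WT 240 min against 0 min, WT 240 against 120 min and D310N 240 against 0 min stayed within 1.5 times under every alternative run. Of 226 genes named for that first comparison, 210 kept direction and call under all 17. Quantile normalisation moved the share of called genes that rose to 42.7%, against 49.5%, and turned Ccl6 (-0.61), Ldha (-0.76), H2-K1 (-0.08), Ikbkg (-0.15) and Arntl (0.15). Lyz2 moved to 0.00 under trimmed scaling and to between -0.04 and 0.03 with 1 library left out, 0.01 and 0.03 being above 0. The cause was not tested.

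For the genotype difference, library weights called 1370 genes (738 higher, 632 lower), the 4 groups alone 565 (292 and 273), and quantile normalisation 175 higher. A replicate block called 350 (187 higher). Same-numbered libraries at 240 and 0 min correlated by 0.166, 0.288 and 0.0998 in D310N cells and by -0.0772, -0.0567 and 0.0929 in WT cells. Differently numbered ones correlated by -0.211 to 0.06 in D310N cells and by -0.0564 to 0.121 in WT cells. The same-numbered values were thus the higher ones in D310N cells but not in WT cells. The main fit treated none as pairs, and whether the D310N libraries were paired was not tested. Leaving out 1 library gave 92 to 627 (49 to 340 higher, 43 to 287 lower). For WT 360 against 240 min, weights called 5093 (2407 and 2686), the 6 libraries alone 0 (0 and 0), and leaving out 1 library 1074 to 5139 (444 to 2484 and 630 to 2655). For 240 min against the average of 120 and 360 min, the compared groups alone called 3378 (1329 lower).

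Depth is unknown, each group held 3 libraries, and genes under the minimum level were not tested.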

Other observations

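Most clock genes fell at 240 min. Of 15 tested, 9 fell and 3 rose (median -1.23). Per1, a repressor of the clock, read 5.47, 5.20 and 5.54 at 240 min and 7.81, 7.61 and 7.81 at 0 min (-2.34 ± 0.15), Dbp, an output factor, differed by -2.21 and Npas2, a partner of ARNTL, by -2.40. Nfil3, which opposes DBP at shared sites, rose by 1.28 and Cry1 by 1.12. Arntl (-0.13) did not pass the test.

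In the list of alpha-arrestins and FOXO targets, 10 of 15 fell and 5 rose (median -0.62). Sesn1, a stress sensor upstream of mTORC1, read 7.63, 7.62 and 7.51 at 240 min and 10.69, 10.76 and 10.65 at 0 min. Foxo3 fell by 1.69 and Tsc22d3, a glucocorticoid-induced gene, by 2.10. Of 16 LXR targets and lipid genes, 8 fell and 7 rose (13 and 1 under quantile normalisation), with the desaturase Scd2 at -2.55 and the cholesterol exporter Abca1 at -1.37. Of 26 lysosomal genes, 7 fell and 6 rose (23 and 1 under quantile normalisation), and Tfeb, which drives lysosomal genes, fell by 2.60 while the protease Ctsc rose by 1.70. In sterol synthesis 9 of 22 rose and 9 fell. Ch25h, which makes 25-hydroxycholesterol, rose by 2.53 and Dhcr7, the last step of cholesterol synthesis, fell by 1.47.

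Of 26 genes of oxidative phosphorylation, 23 rose and 0 fell, by small amounts (median 0.33), against 6 and 7 under quantile normalisation. In the unfolded protein response 8 of 23 rose and 11 fell (1 and 20 under quantile normalisation), of 16 NRF2 targets 6 rose and 4 fell (5 and 9 under quantile normalisation), of 16 myeloid lectins and Siglecs 7 rose and 4 fell (5 and 6), and of 10 tested serpins and acute phase genes 8 rose and 2 fell.

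Of 20 tRNA synthetase genes, 7 rose and 8 fell (4 and 12 under quantile normalisation), with Wars, the tryptophan enzyme and a known interferon target, at 1.87 ± 0.04. Of 22 genes of matrix proteolysis and coagulation, 10 rose and 7 fell. Mmp14, a membrane-bound protease, rose by 3.49, and Plau, a plasminogen activator, fell by 2.00, as did Thbd, which encodes thrombomodulin, by 2.00.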
